A study of Mus musculus with 14 samples.

Results

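Integrins and laminins were followed through 14 mouse mammary tumors as the 37 genes whose symbol is that of an integrin α chain, an integrin β chain or a laminin chain and that were counted in both experiments of the study. They are 26 integrin genes and 11 laminin genes among 17232 genes shared by the 2 count tables. All 37 had passed the authors' filter on low counts in both tables, and none was left out. The genes were read in 4 classes drawn up from general knowledge of where each chain is expressed. These are 9 epithelial, 8 leukocyte and 8 vascular subunits and 12 others that are broadly expressed, mesenchymal or embryonic. The class names say where the chains are known from, and which cells of these tumors held the transcripts was not tested.

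The tumors came from MMTV-PyMT mice, in which a mammary-specific promoter drives the polyomavirus middle T antigen in all groups, the controls included. In the *Lats2* experiment, 4 *Lats2*-CKO PyMT tumors were compared with 3 WT-PyMT tumors, and in the *Lats1* experiment, 4 *Lats1*-CKO PyMT tumors with 3 other WT-PyMT tumors. CKO stands for a conditional knockout in which a mammary-specific Cre recombinase excises exon 5 of *Lats2* or exon 4 of *Lats1*. The RNA is of bulk tumor, which also holds stromal, vascular and immune cells. The mice were 3 months old, with WT-PyMT littermates as controls, and each tumor is named here by its group and the number in its label. For the *Lats2* experiment the study states that every tumor came from a different mouse. Its description of the *Lats1* experiment does not state this, but the numbers in the labels all differ there. Of the WT-PyMT tumors of the *Lats2* experiment, 14 and 2 were adenomas and 1 was a carcinoma. *Lats2*-CKO 7 was an adenoma, and *Lats2*-CKO 8, *Lats2*-CKO 16 and the library labelled *Lats2*-CKO 1 were carcinomas. Of the WT-PyMT tumors of the *Lats1* experiment, 20 and 22 were adenomas and 17 was a carcinoma. *Lats1*-CKO 27 was an adenoma, *Lats1*-CKO 14 and 18 were carcinomas and *Lats1*-CKO 21 was an adenosquamous carcinoma.

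An integrin is a pair of 1 α and 1 β chain that spans the cell membrane and holds a cell to its matrix or to another cell. A laminin is a trimer of 1 α, 1 β and 1 γ chain that forms the sheet of the basement membrane, and it is the main ligand of several epithelial integrins. In the mammary gland the α6β4 integrin binds laminin in the hemidesmosome, a plaque that ties keratin filaments to the basement membrane, while α3β1 and α6β1 connect laminin to actin. Leukocytes carry their own β2 and β7 integrins, and blood vessel walls and platelets carry others, so a piece of tumor holds several integrin sets at once.

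Library totals ranged from 18593864 to 31909282 counts, and the 37 genes took 0.231% to 0.441% of them. Levels are CPM, counts scaled to a common library size with TMM, which corrects for a few genes taking a large share of a library. *Lats1* was at 102 to 124 CPM in its WT-PyMT tumors and at 32.1 to 37.3 CPM in *Lats1*-CKO tumors, without overlap (log2 fold change -1.75, SE 0.09, adjusted p = 0.00364 with edgeR). *Lats2* was at 23.8, 29.8 and 55.9 CPM in WT-PyMT tumors 1, 2 and 14, and at 8.49 to 16.4 CPM in *Lats2*-CKO tumors 7, 8 and 16. The library labelled *Lats2*-CKO 1 stood at 33.7 CPM, above the other *Lats2*-CKO tumors and 2 of the 3 WT-PyMT tumors (log2 fold change of the group -1.06, SE 0.52, adjusted p = 0.688 with edgeR). For this reason the log2 fold changes of the genes named in the *Lats2* experiment by their p are also given without that library. Counts cover the whole gene and not only the excised exon, so this level cannot show whether the label is right or wrong. WT-PyMT tumors 14 and 22 stood apart in lymphocyte markers. A list of T and NK cell markers summed to 2250 and 446 CPM there and to 9.40 to 68.7 CPM in the other 12 tumors, and a list of B and plasma cell markers to 1697 and 448 CPM against 2.54 to 149 CPM. Luminal epithelial markers summed to 1099 CPM in WT-PyMT 14 and to 2828 to 4921 CPM in the other 13 tumors. Basal and myoepithelial markers summed to 519, 471 and 993 CPM in WT-PyMT 1, 14 and 2. They summed to 1203, 377 and 1438 CPM in *Lats2*-CKO 16, 7 and 8 and to 1073 CPM in the library labelled *Lats2*-CKO 1. In the *Lats1* experiment they summed to 407 to 539 CPM in WT-PyMT and to 1087, 499, 349 and 1632 CPM in *Lats1*-CKO 27, 18, 14 and 21. Their part in the levels of the 37 genes was not tested. In bulk samples of this kind, fewer cells of a type and less RNA per cell cannot be told apart.

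Of the 37 genes, 23 had an entry among the RefSeq promoter windows of GRCm38.p6, with 26 windows because 3 genes had a second one, each covering 250 bases before and 50 bases after a start site. The windows were searched on both strands for GGAATG, the letters bound by TEAD factors through which YAP and TAZ act, for the AP-1 letters TGACTCA and for the GC box GGGCGG. These motifs did not overlap one another in the windows shown. The TEAD letters stood in 3 of 26 windows, those of *Itga10*, *Itgb1* and *Lamb3*, against 14.7% of 32851 mouse windows, and the AP-1 letters in 2 of 26 against 5.2%. The GC box stood in 12 of 26 against 35.7%. Matches are descriptions of the sequence and not sites of binding. Shown here are 3 windows of genes whose levels are described further on, 5′ to 3′ along the transcribed strand, with motif letters in capitals.

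Itga3 promoter, chr11:95076665-95076964, minus strand: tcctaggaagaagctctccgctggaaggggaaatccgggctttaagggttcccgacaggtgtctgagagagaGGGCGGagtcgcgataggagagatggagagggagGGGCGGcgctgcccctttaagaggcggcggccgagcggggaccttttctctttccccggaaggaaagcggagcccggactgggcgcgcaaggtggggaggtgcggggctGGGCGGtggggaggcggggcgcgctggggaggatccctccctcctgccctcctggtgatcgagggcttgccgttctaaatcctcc

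Lamb1 promoter, chr12:31265043-31265342, plus strand: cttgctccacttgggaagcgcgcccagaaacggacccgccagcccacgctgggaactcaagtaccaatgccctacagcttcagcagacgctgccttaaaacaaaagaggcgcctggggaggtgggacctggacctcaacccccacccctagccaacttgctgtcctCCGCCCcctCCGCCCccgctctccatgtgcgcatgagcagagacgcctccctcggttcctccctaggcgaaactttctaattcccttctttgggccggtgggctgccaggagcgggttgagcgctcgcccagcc

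Itgb1 promoter, chr8:128685404-128685703, plus strand: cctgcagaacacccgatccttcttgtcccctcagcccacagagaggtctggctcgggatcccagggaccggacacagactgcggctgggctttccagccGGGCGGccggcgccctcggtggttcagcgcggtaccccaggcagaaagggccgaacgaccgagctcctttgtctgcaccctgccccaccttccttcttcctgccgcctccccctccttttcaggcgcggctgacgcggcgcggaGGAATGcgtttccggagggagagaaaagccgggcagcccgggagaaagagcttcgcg

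The *Itga3* window holds the GC box beginning 178, 144 and 35 bases before the start, and the *Lamb1* window holds it on the opposite strand beginning 84 and 75 bases before. In the *Itgb1* window the GC box begins 151 bases before the start and GGAATG begins 7 bases before it. *Itga3* lies on chromosome 11 from 95044474 to 95076801 of GRCm38, *Lamb1* on chromosome 12 from 31265234 to 31329644 and *Itgb1* on chromosome 8 from 128685654 to 128733200.

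Levels of different genes were compared per length, as RPKM, counts scaled to library size and to kilobases of exon. *Itgb1*, the β chain shared by most laminin and collagen receptors, had the highest mean level of the 37, at 155 RPKM over the 14 tumors, and ranged from 89.4 to 276 RPKM. *Itga6*, its partner in laminin binding, followed at 57.0 RPKM, with *Itgb5*, a β chain that pairs with αV, at 46.0 RPKM. The ranges of *Itga6* and *Itgb5*, 21.0 to 84.8 and 14.3 to 69.5 RPKM, overlap, so their order is within the spread of the tumors. The leukocyte chain gene *Itgad* had the lowest mean, at 0.168 RPKM. The plot of levels by tumor shows 5 of the 8 leukocyte genes highest in WT-PyMT 14, with WT-PyMT 22 second in 4 of these 5.

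**Figure D1:**
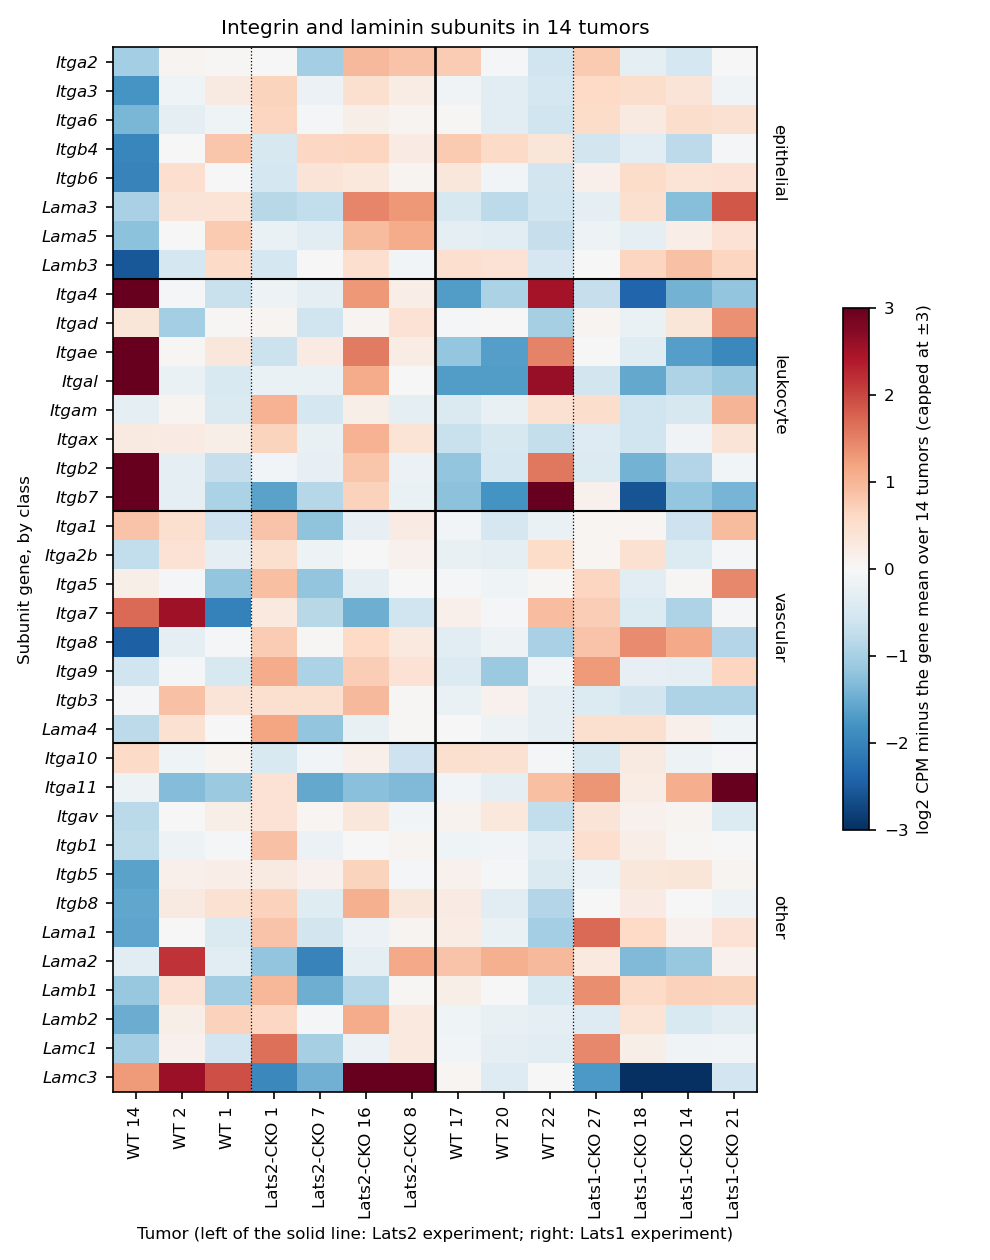
Level of 36 of the 37 genes in each of the 14 tumors, as log2 CPM relative to the mean of that gene over the tumors. Genes are ordered by class and tumors by group, and WT-PyMT 14 stands out by 5 high leukocyte genes (*Itgb7* 397 CPM) and low epithelial ones (*Itgb4* 37.5 CPM).

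The comparison of the *Lats1* experiment asks which chains differ between tumors with and without *Lats1*. Transcripts of the laminin chain β1 (*Lamb1*) and of the integrin chains α6 (*Itga6*) and α3 (*Itga3*) were higher in *Lats1*-CKO tumors, by 0.66 to 0.93 on the log2 scale, and that of the integrin chain β4 (*Itgb4*) was lower, with a log2 fold change of -1.01. These 4 differences passed DESeq2 and did not pass edgeR. No member of the set passed an adjusted p of 0.05 in edgeR's quasi-likelihood test, where 0.0225% of all 17763 genes did. With an unadjusted p under 0.05, 8 members were higher and 5 lower in *Lats1*-CKO tumors (13 of 37), beside 4.76% and 6.58% of all genes. DESeq2, the tool of the study, called 4 members higher (*Itga3*, *Itga6* and *Lamb1* among them), beside 1.94% of the 14835 genes given an adjusted p. It called 1 lower (*Itgb4*), beside 2.02% of those genes, and gave no adjusted p for *Itgb7*, *Itga4* and *Itgal*. In 4 members all *Lats1*-CKO tumors were above all WT-PyMT tumors and in 4 all were below, beside 4.88% and 6.47% of all genes. The median log2 fold change was 0.46 over the 9 epithelial genes, -1.10 over the 8 leukocyte genes, 0.41 over the 8 vascular genes and 0.25 over the 12 others, with 0.34 over all 37 and -0.0029 over all genes. Without WT-PyMT 22, 7 members had an unadjusted p under 0.05, and the share over all genes was not computed for that fit.

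**Figure D2:**
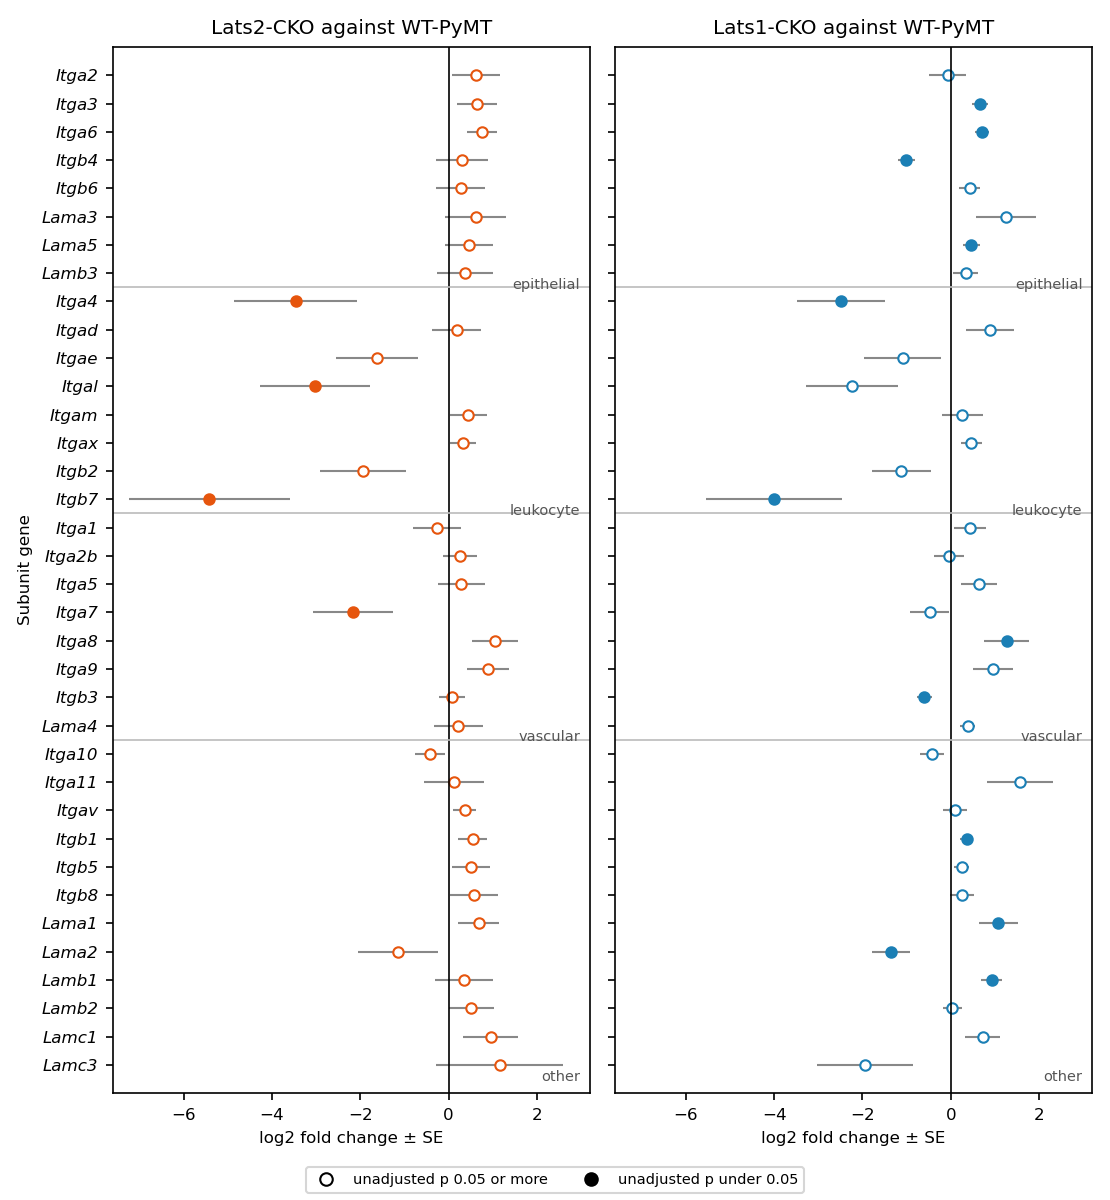
Log2 fold change of 36 genes with its standard error, *Lats1*-CKO against WT-PyMT and *Lats2*-CKO against WT-PyMT, ordered by class. *Itga6* (0.71) and *Itgb4* (-1.01) in the *Lats1* experiment lie far from 0 for their errors, and *Itgb7*, *Itga4* and *Itgal* have the largest negative values in the *Lats2* experiment, with standard errors above 1.

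*Itga6*, the α6 chain of laminin receptors, lies on chromosome 2 from 71745616 to 71858416. It was at 498, 389 and 319 CPM in WT-PyMT tumors 17, 20 and 22 and at 717, 586, 698 and 671 CPM in *Lats1*-CKO tumors 27, 18, 14 and 21. All *Lats1*-CKO tumors were above all WT-PyMT tumors, with means of 668 ± 57.8 (SD, n = 4) and 402 ± 90.2 CPM (SD, n = 3). This is a log2 fold change of 0.71 (SE 0.16, adjusted p = 0.209 with edgeR and 0.00173 with DESeq2). *Itgb4*, the β4 chain that pairs with α6 alone and anchors the hemidesmosome, lies on chromosome 11 from 115974709 to 116008412. It was at 252, 217 and 188 CPM in the same WT-PyMT tumors and at 98.9, 117, 84.1 and 142 CPM in the *Lats1*-CKO tumors. The order was the opposite of that of *Itga6*, with all *Lats1*-CKO tumors below all WT-PyMT tumors and a log2 fold change of -1.01 (SE 0.19, adjusted p = 0.184 with edgeR and 4.18e-04 with DESeq2).

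*Itga3*, the α3 chain that pairs with β1 to bind laminins, was at 78.3, 67.7 and 58.8 CPM in WT-PyMT tumors 17, 20 and 22 and at 128, 121, 111 and 78.6 CPM in *Lats1*-CKO tumors 27, 18, 14 and 21. *Lats1*-CKO 21 was level with the highest WT-PyMT tumor and the other 3 were well above. Between the groups the log2 fold change was 0.66 (SE 0.18, adjusted p = 0.300 with edgeR and 0.0303 with DESeq2). Its human counterpart belongs to a basal-associated gene signature that the study drew from human tumors and kept to genes that also differed in these mouse tumors, so its direction is not independent evidence. *Lama5*, the α5 chain of laminin-511, was at 119, 114 and 88.3 CPM in WT-PyMT tumors and at 129, 116, 164 and 191 CPM in *Lats1*-CKO tumors 27, 18, 14 and 21. *Lats1*-CKO 18 lay among the WT-PyMT tumors, and the log2 fold change of 0.46 (SE 0.19) had an unadjusted p of 0.0457 (adjusted p = 0.432 with edgeR). *Itga2* and *Itgb6*, the remaining epithelial genes, had log2 fold changes of -0.07 (SE 0.43) and 0.43 (SE 0.23).

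*Lamb3* and *Lama3*, the β3 and α3 laminin chains of epithelia, are described here after their values were seen. *Lamb3* ranged from 74.1 to 151 CPM in WT-PyMT and from 105 to 196 CPM in *Lats1*-CKO tumors (log2 fold change 0.34, SE 0.29). *Lama3* ranged from 10.3 to 12.7 CPM in WT-PyMT tumors and stood at 7.37 CPM in *Lats1*-CKO 14 and 65.6 CPM in *Lats1*-CKO 21 (log2 fold change 1.25, SE 0.68). Neither passed a test. A list of squamous markers summed to 519 CPM in *Lats1*-CKO 21 and to 3.48 to 34.9 CPM in all other tumors, and its part in the *Lama3* level was not tested.

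**Figure D3:**
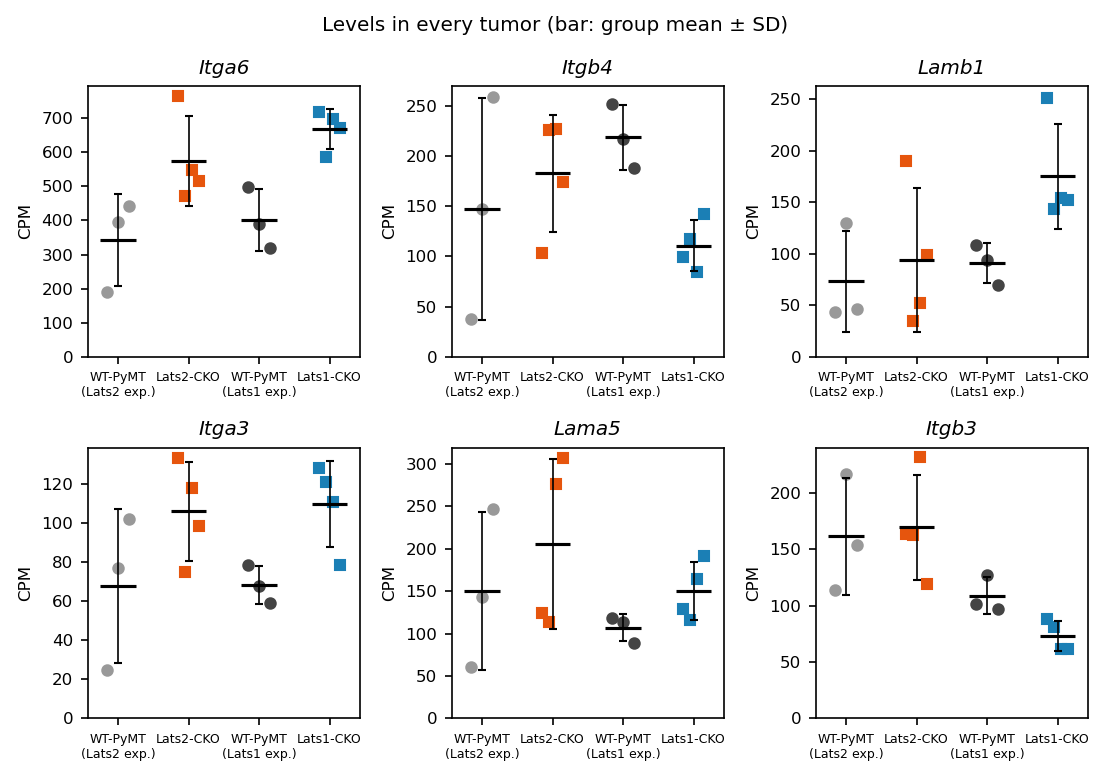
Level in CPM in every tumor (points) with the group mean and SD (bars) for 6 members, by group. *Itga6* is higher and *Itgb4* lower in all *Lats1*-CKO than in all WT-PyMT tumors of the *Lats1* experiment, while the groups of the *Lats2* experiment overlap for *Itgb4*.

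All 9 epithelial genes had a log2 fold change above 0 between *Lats2*-CKO and WT-PyMT tumors and 5 of 8 leukocyte genes one below 0. Without WT-PyMT 14 these counts were 6 of 9 and 0 of 8. No member passed an adjusted p of 0.05 in edgeR, nor did any of the 17702 genes (0%). There were 4 members with an unadjusted p under 0.05, beside 7.08% of all genes, and all 4 were lower in *Lats2*-CKO tumors, beside 5.91% of all genes that were lower. DESeq2 called 0 members higher and 0 lower, beside 0.11% and 0.779% of the 15524 genes given an adjusted p. It gave no p for *Itgb7*, *Itga4*, *Itgal*, *Itgb2* and *Itgae*. All *Lats2*-CKO tumors were above all WT-PyMT tumors in 2 members, *Itga6* and *Itga8*, and below in 0, beside 1.43% and 2.26% of all genes. The median log2 fold change was 0.61 over the epithelial genes (9 of 9 above 0), -1.78 over the leukocyte genes (3 of 8), 0.24 over the vascular genes (6 of 8) and 0.51 over the others (10 of 12), with -0.0028 over all genes. Without WT-PyMT 14, which was low in luminal markers, the epithelial median was 0.25, with 6 of 9 genes above 0. Without the library labelled *Lats2*-CKO 1, 2 members had an unadjusted p under 0.05 and the vascular median was -0.04. The count was 8 without WT-PyMT 1, 2 without *Lats2*-CKO 7, and 1 without each of WT-PyMT 14, *Lats2*-CKO 16 and *Lats2*-CKO 8. For the fits without a tumor the share over all genes was not computed, so these counts cannot be set against it.

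*Itga6* was at 443, 189 and 397 CPM in WT-PyMT tumors 1, 14 and 2, at 548, 470 and 514 CPM in *Lats2*-CKO tumors 16, 7 and 8, and at 765 CPM in the library labelled *Lats2*-CKO 1. The groups did not overlap, but *Lats2*-CKO 7 was close to WT-PyMT 1. The log2 fold change of 0.75 (SE 0.34, adjusted p = 0.688 with edgeR) was 0.58 without the library labelled *Lats2*-CKO 1 and 0.45 without WT-PyMT 14. *Itga3* was at 102, 24.6 and 77.2 CPM in WT-PyMT tumors 1, 14 and 2 and at 118, 74.6 and 98.3 CPM in *Lats2*-CKO 16, 7 and 8, with 133 CPM in the library labelled *Lats2*-CKO 1. The groups overlapped, with a log2 fold change of 0.65 (SE 0.46, adjusted p = 0.744 with edgeR). It was 0.25 without WT-PyMT 14, 1.04 without WT-PyMT 1 and 0.52 without the library labelled *Lats2*-CKO 1. *Lama5* was at 247, 61.0 and 143 CPM in the WT-PyMT tumors, at 277, 114 and 307 CPM in *Lats2*-CKO 16, 7 and 8 and at 124 CPM in the library labelled *Lats2*-CKO 1. The groups overlapped as well, with a log2 fold change of 0.46 (SE 0.55, adjusted p = 0.821 with edgeR). It was 0.08 without WT-PyMT 14, 0.99 without WT-PyMT 1, 0.20 without *Lats2*-CKO 8, 0.28 without *Lats2*-CKO 16 and 0.64 without the library labelled *Lats2*-CKO 1. Of the epithelial genes not named by their p, *Itga2*, *Itgb6*, *Lama3* and *Lamb3* had log2 fold changes of 0.63 (SE 0.55), 0.28 (SE 0.56), 0.61 (SE 0.69) and 0.36 (SE 0.63).

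*Itgb4* in the *Lats2* experiment was at 259, 37.5 and 147 CPM in WT-PyMT tumors 1, 14 and 2, at 227, 225 and 174 CPM in *Lats2*-CKO 16, 7 and 8 and at 104 CPM in the library labelled *Lats2*-CKO 1. The range of the WT-PyMT tumors held all values of the other group, and the log2 fold change of 0.31 (SE 0.59) was -0.15 without WT-PyMT 14, 0.98 without WT-PyMT 1 and 0.51 without the library labelled *Lats2*-CKO 1. It was 0.19 without *Lats2*-CKO 7 and without *Lats2*-CKO 16. The difference between the *Itgb4* changes of the 2 experiments, tested over all 14 libraries, was -1.29 on the log2 scale (SE 0.67, unadjusted p = 0.0774, adjusted p = 0.913 with edgeR), or -0.83 without WT-PyMT 14 and -1.97 without WT-PyMT 1.

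The levels of the 2 chains of α6β4 were also set against each other per length. The RPKM of *Itga6* divided by that of *Itgb4*, a ratio formed after the values were seen and therefore untested, was 1.53, 1.39 and 1.32 in WT-PyMT tumors 17, 20 and 22. It was 5.63, 3.88, 6.45 and 3.66 in *Lats1*-CKO tumors 27, 18, 14 and 21. The *Lats2* experiment had ratios of 1.33, 3.92 and 2.1 in WT-PyMT tumors 1, 14 and 2, and 1.87, 1.62 and 2.30 in *Lats2*-CKO 16, 7 and 8. The library labelled *Lats2*-CKO 1 had a ratio of 5.74. Both this library and WT-PyMT 14 lay within the range of the *Lats1*-CKO tumors. Over the 14 tumors the log2 CPM of the chains had a Pearson r of 0.21 and a Spearman rho of -0.34 (permutation p adjusted over 18 pairs = 0.589 and 0.391). The sign of r changed with 2 tumors. Without WT-PyMT 14 and 22, the tumors farthest from the median of *Itga6*, r was -0.75 and rho -0.72 (permutation p adjusted over 18 pairs = 0.0182 and 0.0314). The *Lats1*-CKO tumors, high in *Itga6* and low in *Itgb4*, are among the tumors left, and the shuffles did not keep groups apart. This r is therefore not separate from the group difference described before. Within the *Lats1* experiment r was -0.75 (exact permutation p = 0.0607, adjusted 0.156) and within the *Lats2* experiment 0.64 (exact permutation p = 0.155, adjusted 0.233).

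**Figure D4:**
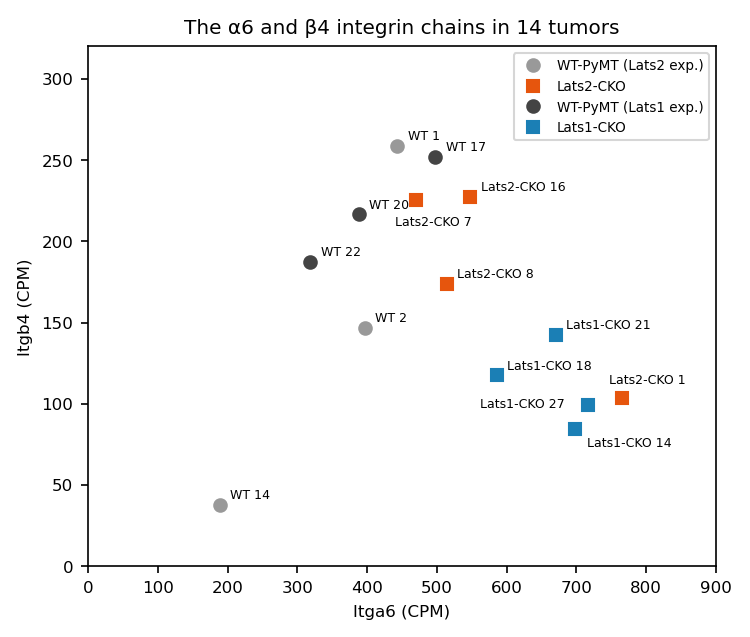
*Itga6* against *Itgb4* in CPM, 1 point per tumor, with both axes from 0. The *Lats1*-CKO tumors (586 to 717 CPM of *Itga6*, 84.1 to 142 CPM of *Itgb4*) lie at the lower right with the library labelled *Lats2*-CKO 1, and WT-PyMT 14 lies at the lower left.

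The genes of 5 of the 8 leukocyte chains (*Itgb7*, *Itga4*, *Itgal*, *Itgb2* and *Itgae*) were highest in the lymphocyte-rich tumor WT-PyMT 14. *Itgb7*, the β chain of the gut-homing α4β7 and of αEβ7, was at 1.88, 397 and 3.02 CPM in WT-PyMT tumors 1, 14 and 2, at 5.99, 1.99 and 3.21 CPM in *Lats2*-CKO 16, 7 and 8 and at 1.16 CPM in the library labelled *Lats2*-CKO 1. WT-PyMT 14 alone was high, and the log2 fold change of -5.41 (SE 1.82, unadjusted p = 0.0195, adjusted p = 0.688 with edgeR) was 0.34 without it. *Itgb7* in the *Lats1* experiment was at 1.53, 1.01 and 85.5 CPM in WT-PyMT tumors 17, 20 and 22 and at 4.04, 0.541, 1.60 and 1.36 CPM in *Lats1*-CKO tumors 27, 18, 14 and 21. Again 1 tumor, WT-PyMT 22, was high, and the log2 fold change of -4.00 (SE 1.54, adjusted p = 0.422 with edgeR) was 0.54 without it.

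*Itga4*, the α4 chain that binds VCAM-1 on vessels, was at 4.2, 292 and 6.52 CPM in WT-PyMT tumors 1, 14 and 2, at 16.8, 5.55 and 7.67 CPM in *Lats2*-CKO 16, 7 and 8 and at 6.05 CPM in the library labelled *Lats2*-CKO 1. Its log2 fold change was -3.46 (SE 1.39, adjusted p = 0.688 with edgeR), or 0.75 without WT-PyMT 14. Levels in the *Lats1* experiment were 2.03, 3.41 and 38.2 CPM in WT-PyMT tumors 17, 20 and 22 and 4.09, 1.23, 2.47 and 2.91 CPM in *Lats1*-CKO tumors 27, 18, 14 and 21. A log2 fold change of -2.48 (SE 1.00, adjusted p = 0.429 with edgeR) was found there, or -0.04 without WT-PyMT 22. *Itgal*, the αL chain of LFA-1, was at 9.39, 376 and 11.3 CPM in WT-PyMT tumors 1, 14 and 2, at 28.2, 11.3 and 13.0 CPM in *Lats2*-CKO 16, 7 and 8 and at 11.2 CPM in the library labelled *Lats2*-CKO 1 (log2 fold change -3.03, SE 1.25, adjusted p = 0.688 with edgeR). Without WT-PyMT 14 that value was 0.63. In the *Lats1* experiment it was at 4.03, 4.02 and 80.5 CPM in WT-PyMT tumors 17, 20 and 22 and at 8.82, 4.43, 6.77 and 5.92 CPM in *Lats1*-CKO tumors 27, 18, 14 and 21 (log2 fold change -2.23, SE 1.04, adjusted p = 0.469 with edgeR), or 0.67 without WT-PyMT 22. For these 3 genes WT-PyMT 14 and WT-PyMT 22 were the highest tumors of their experiments, and *Lats2*-CKO 16 was the highest of its group. Without the library labelled *Lats2*-CKO 1 the log2 fold changes of *Itgb7*, *Itga4* and *Itgal* in the *Lats2* experiment were -5.14, -3.31 and -2.89.

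The other leukocyte genes were named here after their values were seen. *Itgb2*, the β chain shared by LFA-1 and the myeloid integrins, was at 286 CPM in WT-PyMT 14, 74.8 CPM in WT-PyMT 22 and 9.20 to 44.1 CPM in the other 12 tumors. *Itgae*, the αE chain that binds E-cadherin, was at 49.5 CPM in WT-PyMT 14, 12.1 CPM in WT-PyMT 22 and 1.05 to 12.6 CPM in the others. The myeloid chains were spread otherwise. *Itgam*, the αM chain of neutrophils and macrophages, ranged from 7.63 to 24.3 CPM over the 14 tumors with its highest value in the library labelled *Lats2*-CKO 1, and *Itgax*, the αX chain of dendritic cells and macrophages, from 15.6 to 52.4 CPM with its highest value in *Lats2*-CKO 16. *Itgad*, the αD chain of macrophages, stayed at 0.298 to 1.91 CPM. Macrophage markers summed to 806 CPM in *Lats2*-CKO 16 and to 297 to 538 CPM in the other 13 tumors, and their part in the *Itgax* level was not tested. Without WT-PyMT 14 the median log2 fold change of the 8 leukocyte genes in the *Lats2* experiment was 0.46, and without WT-PyMT 22 that in the *Lats1* experiment was 0.57. With the mean of the lymphocyte markers as a covariate, an alternative chosen after seeing the data, these medians were 0.24 and 0.21.

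**Figure D5:**
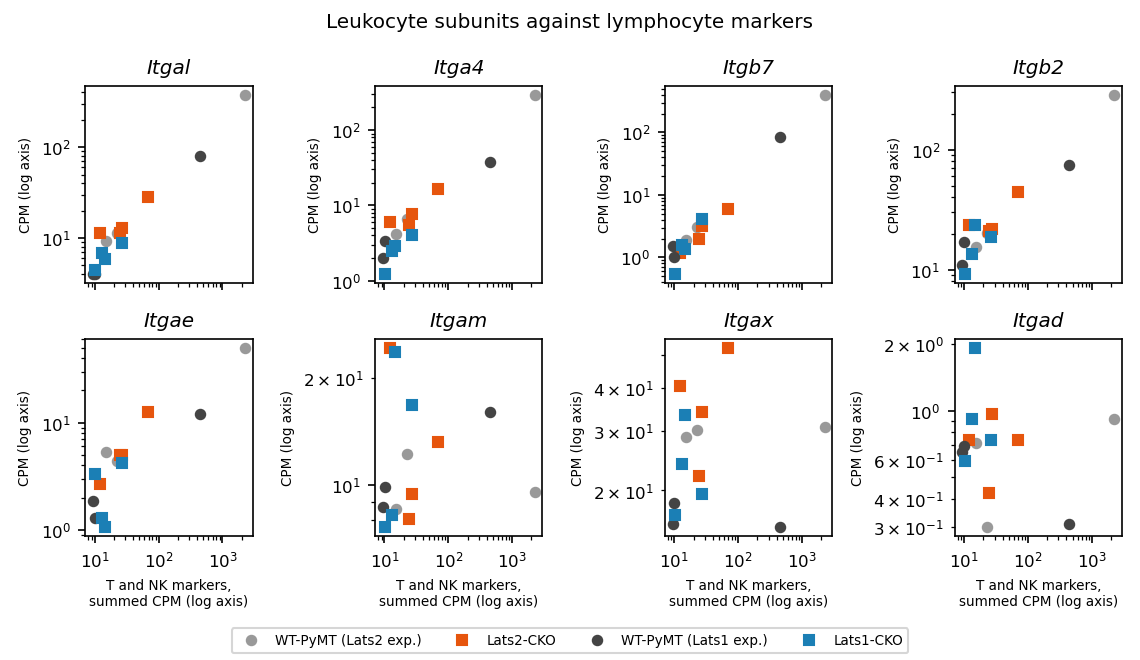
Level of leukocyte integrin genes in each tumor (CPM, log axis) against the summed level of the T and NK cell markers (CPM, log axis). WT-PyMT 14 and WT-PyMT 22, with marker sums of 2250 and 446 CPM, hold the highest values of *Itgb7*, *Itga4* and *Itgal*, at 85.5 CPM or more for *Itgb7*.

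The vascular genes gave mixed values. *Itgb3*, the β3 chain of the platelet fibrinogen receptor and of αVβ3, was at 102, 128 and 96.9 CPM in WT-PyMT tumors 17, 20 and 22 and at 88.3, 80.8, 61.7 and 61.8 CPM in *Lats1*-CKO tumors 27, 18, 14 and 21. All *Lats1*-CKO tumors were below all WT-PyMT tumors, with a log2 fold change of -0.60 (SE 0.17, unadjusted p = 0.0080, adjusted p = 0.305 with edgeR and 0.0549 with DESeq2). In the *Lats2* experiment it was at 154, 114 and 217 CPM in WT-PyMT tumors 1, 14 and 2, at 232, 163 and 120 CPM in *Lats2*-CKO 16, 7 and 8 and at 164 CPM in the library labelled *Lats2*-CKO 1, with a log2 fold change of 0.08 (SE 0.29). This was 0.10 without the library labelled *Lats2*-CKO 1 and ranged from -0.13 without WT-PyMT 14 to 0.35 without WT-PyMT 2. The difference between the changes was -0.64 (SE 0.35, adjusted p = 0.913 with edgeR). Platelet and megakaryocyte markers summed to 1.42 to 9.57 CPM over the 14 tumors while *Itgb3* stood at 61.7 to 232 CPM.

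*Itga8*, the α8 chain that binds nephronectin, was at 66.1, 75.3 and 42.2 CPM in WT-PyMT tumors 17, 20 and 22 and at 150, 220, 183 and 44.8 CPM in *Lats1*-CKO tumors 27, 18, 14 and 21. *Lats1*-CKO 21, the adenosquamous tumor, lay among the WT-PyMT tumors and the other 3 were above them all (log2 fold change 1.26, SE 0.50, adjusted p = 0.424 with edgeR). In the *Lats2* experiment it was at 80.3, 15.2 and 68.9 CPM in WT-PyMT tumors 1, 14 and 2, at 126, 85.0 and 102 CPM in *Lats2*-CKO 16, 7 and 8 and at 141 CPM in the library labelled *Lats2*-CKO 1. The groups did not overlap, with a log2 fold change of 1.06 (SE 0.53, adjusted p = 0.688 with edgeR), or 0.94 without the library labelled *Lats2*-CKO 1 and 0.61 without WT-PyMT 14.

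*Itga7*, the α7 chain of laminin receptors in muscle, was at 1.42, 19.8 and 36.1 CPM in WT-PyMT tumors 1, 14 and 2, at 2.14, 3.37 and 3.97 CPM in *Lats2*-CKO 16, 7 and 8 and at 7.47 CPM in the library labelled *Lats2*-CKO 1. WT-PyMT 1 was the lowest tumor of all, so only WT-PyMT 14 and 2 stood above the *Lats2*-CKO tumors. The log2 fold change of -2.16 (SE 0.91, adjusted p = 0.688 with edgeR) was -1.30 without WT-PyMT 2 and -2.58 without the library labelled *Lats2*-CKO 1. *Itga7* in the *Lats1* experiment was at 6.75, 5.89 and 11.6 CPM in WT-PyMT tumors 17, 20 and 22 and at 10.1, 4.58, 3.16 and 5.92 CPM in *Lats1*-CKO tumors 27, 18, 14 and 21 (log2 fold change -0.47, SE 0.44, adjusted p = 0.714 with edgeR). That value was -0.11 without WT-PyMT 22, -0.24 without *Lats1*-CKO 14 and -0.85 without *Lats1*-CKO 27. Adipocyte markers summed to 5328 and 6348 CPM in WT-PyMT 14 and 2 and to 3.74 to 1425 CPM in the other 12. Skeletal muscle markers summed to 2421 CPM in *Lats2*-CKO 7, 800 CPM in *Lats1*-CKO 21, 243 CPM in WT-PyMT 17 and 193 CPM in *Lats1*-CKO 14. They summed to 2.31 to 16.6 CPM in the remaining tumors. The part of either list in the *Itga7* results was not tested.

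*Itga9*, an α chain that pairs with β1, was at 10.2, 9.39 and 13.7 CPM in WT-PyMT tumors 1, 14 and 2, at 24.0, 7.36 and 19.5 CPM in *Lats2*-CKO 16, 7 and 8 and at 31.1 CPM in the library labelled *Lats2*-CKO 1 (log2 fold change 0.89, SE 0.47, adjusted p = 0.692 with edgeR, or 0.62 without that library). In the *Lats1* experiment it was at 10.7, 6.62 and 13.5 CPM in WT-PyMT tumors 17, 20 and 22 and at 34.9, 12.1, 11.8 and 22.3 CPM in *Lats1*-CKO tumors 27, 18, 14 and 21 (log2 fold change 0.95, SE 0.46, adjusted p = 0.476 with edgeR, or 0.56 without *Lats1*-CKO 27). The groups overlapped in both experiments. *Lama4*, the α4 laminin chain of vessel walls, was at 78.2, 69.7 and 63.8 CPM in WT-PyMT tumors 17, 20 and 22 and at 109, 108, 87.2 and 70.8 CPM in *Lats1*-CKO tumors 27, 18, 14 and 21 (log2 fold change 0.38, SE 0.16, unadjusted p = 0.0508). *Lats1*-CKO 21 lay among the WT-PyMT tumors. *Lama4* in the *Lats2* experiment was at 77.3, 45.4 and 107 CPM in WT-PyMT tumors 1, 14 and 2, at 66.3, 34.4 and 79.7 CPM in *Lats2*-CKO 16, 7 and 8 and at 176 CPM in the library labelled *Lats2*-CKO 1, and its log2 fold change of 0.23 (SE 0.55) ranged from -0.34 without that library to 0.55 without WT-PyMT 2. *Itga1*, *Itga5* and *Itga2b*, the collagen, fibronectin and platelet α chains, had unadjusted p values from 0.158 to 0.913 with edgeR in the 2 genotype comparisons. Endothelial markers summed to 44.0 CPM in WT-PyMT 1, the lowest tumor, and to 409 CPM in WT-PyMT 14, the highest. In these tumors *Itga8* was at 80.3 and 15.2 CPM. Over the *Lats1* experiment the markers summed to 205 to 285 CPM in WT-PyMT and to 145 to 256 CPM in *Lats1*-CKO tumors. Their part in the levels of the vascular genes was not tested.

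Among the other chains, *Lamb1*, the β1 chain of the most widespread laminins, was at 108, 94.1 and 69.7 CPM in WT-PyMT tumors 17, 20 and 22 and at 251, 143, 154 and 152 CPM in *Lats1*-CKO tumors 27, 18, 14 and 21. All *Lats1*-CKO tumors were above all WT-PyMT tumors, and *Lats1*-CKO 27 stood far above its group. The log2 fold change was 0.93 (SE 0.24, adjusted p = 0.264 with edgeR and 0.0109 with DESeq2), or 0.70 without *Lats1*-CKO 27. The *Lats2* experiment had *Lamb1* at 46.5, 43.3 and 130 CPM in WT-PyMT tumors 1, 14 and 2, at 52.5, 34.4 and 98.5 CPM in *Lats2*-CKO 16, 7 and 8 and at 190 CPM in the library labelled *Lats2*-CKO 1. The groups overlapped, and the log2 fold change of 0.36 (SE 0.66) ranged from -0.24 without the library labelled *Lats2*-CKO 1 to 1.07 without WT-PyMT 2.

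*Lamc1*, the γ1 chain that joins β1 in these trimers, was at 156, 137 and 130 CPM in WT-PyMT tumors 17, 20 and 22 and at 452, 185, 153 and 157 CPM in *Lats1*-CKO tumors 27, 18, 14 and 21. Only *Lats1*-CKO 27 was far from the WT-PyMT tumors, and the log2 fold change of 0.72 (SE 0.40) was 0.21 without it. The *Lats2* experiment had *Lamc1* at 110, 79.5 and 179 CPM in WT-PyMT tumors 1, 14 and 2, at 146, 82.8 and 201 CPM in *Lats2*-CKO 16, 7 and 8 and at 523 CPM in the library labelled *Lats2*-CKO 1. The log2 fold change of 0.95 (SE 0.63, adjusted p = 0.734 with edgeR) was 0.22 without that library. *Lama1*, the α1 chain of laminin-111, was at 36.0, 27.0 and 15.2 CPM in WT-PyMT tumors 17, 20 and 22 and at 101, 47.2, 34.0 and 42.0 CPM in *Lats1*-CKO tumors 27, 18, 14 and 21. *Lats1*-CKO 27 was again the highest, and the log2 fold change of 1.08 (SE 0.44, adjusted p = 0.430 with edgeR) was 0.63 without it. *Lama1* in the *Lats2* experiment was at 23.0, 10.3 and 30.9 CPM in WT-PyMT tumors 1, 14 and 2, at 27.7, 21.1 and 32.7 CPM in *Lats2*-CKO 16, 7 and 8 and at 55.9 CPM in the library labelled *Lats2*-CKO 1, which was again the highest. The log2 fold change of 0.68 (SE 0.46) was 0.35 without that library, 0.35 without WT-PyMT 14 and 1.05 without WT-PyMT 2.

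*Itgb1* was at 560, 576 and 484 CPM in WT-PyMT tumors 17, 20 and 22 and at 874, 702, 631 and 610 CPM in *Lats1*-CKO tumors 27, 18, 14 and 21. The groups did not overlap but were close, with a log2 fold change of 0.36 (SE 0.15, unadjusted p = 0.0460, adjusted p = 0.432 with edgeR). Its level in the *Lats2* experiment was 600, 365 and 549 CPM in WT-PyMT tumors 1, 14 and 2, at 607, 543 and 654 CPM in *Lats2*-CKO 16, 7 and 8 and at 1128 CPM in the library labelled *Lats2*-CKO 1 (log2 fold change 0.54, SE 0.33, or 0.26 without that library and 0.35 without WT-PyMT 14). *Lats2*-CKO 7 lay among the WT-PyMT tumors and the library labelled *Lats2*-CKO 1 was far above all.

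*Itgb8*, a β chain that activates latent TGF-β with αV, was at 17.2, 11.5 and 7.89 CPM in WT-PyMT tumors 17, 20 and 22 and at 14.4, 17.2, 14.4 and 13.1 CPM in *Lats1*-CKO tumors 27, 18, 14 and 21 (log2 fold change 0.25, SE 0.27, or 0.02 without WT-PyMT 22 and 0.59 without WT-PyMT 17). It was at 19.8, 4.82 and 17.5 CPM in WT-PyMT tumors 1, 14 and 2, at 30.5, 11.2 and 18.3 CPM in *Lats2*-CKO 16, 7 and 8 and at 23.3 CPM in the library labelled *Lats2*-CKO 1 (log2 fold change 0.57, SE 0.54, or 0.52 without that library, 0.16 without WT-PyMT 14, 0.33 without *Lats2*-CKO 16 and 0.88 without WT-PyMT 1). The groups overlapped in both experiments. Of the remaining chains, *Itga10*, *Itga11*, *Itgav*, *Itgb5* and *Lamb2* had unadjusted p values from 0.0706 to 0.868 with edgeR in the 2 genotype comparisons. The smallest was that of *Itga11*, a collagen receptor chain of fibroblasts, which was at 17.3 CPM in *Lats1*-CKO 21 and at 0.617 to 5.03 CPM in the other 13 tumors (log2 fold change 1.57, SE 0.74, in *Lats1*-CKO tumors).

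*Lama2*, the α2 laminin chain of muscle and stroma, was at 14.1, 16.2 and 15.2 CPM in WT-PyMT tumors 17, 20 and 22 and at 9.42, 3.00, 3.43 and 8.38 CPM in *Lats1*-CKO tumors 27, 18, 14 and 21. All *Lats1*-CKO tumors were below all WT-PyMT tumors, with a log2 fold change of -1.35 (SE 0.43, unadjusted p = 0.0162, adjusted p = 0.370 with edgeR and 0.0765 with DESeq2). For *Lama2* WT-PyMT tumors 1, 14 and 2 were at 6.11, 6.21 and 34.7 CPM, *Lats2*-CKO 16, 7 and 8 at 6.26, 1.85 and 16.9 CPM and the library labelled *Lats2*-CKO 1 at 3.35 CPM. The groups overlapped, and the log2 fold change of -1.14 (SE 0.91) was 0.21 without WT-PyMT 2, -2.03 without *Lats2*-CKO 8 and -0.91 without the library labelled *Lats2*-CKO 1. Fibroblast markers summed to 2841 CPM in WT-PyMT 2 and to 323 to 2480 CPM in the other 13 tumors. Within the *Lats1* experiment they summed to 1548 to 2310 CPM in WT-PyMT and 831 to 2480 CPM in *Lats1*-CKO tumors. Their part in the *Lama2* result, and that of the skeletal muscle markers given before, was not tested. *Lamc3*, a γ3 chain named after its values were seen, was low in both groups of the *Lats1* experiment. It was at 0 to 1.20 CPM in *Lats1*-CKO and 1.38 to 1.92 CPM in WT-PyMT tumors. In the *Lats2* experiment it ranged from 0.419 CPM in the library labelled *Lats2*-CKO 1 to 35.9 CPM in *Lats2*-CKO 16. No test passed for it (unadjusted p = 0.114 and 0.444 with edgeR).

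Whether the 2 deletions differed was tested directly, by subtracting the change of *Lats2*-CKO from that of *Lats1*-CKO in 1 fit of the 14 libraries. No member passed the adjusted threshold in edgeR, where 0.0174% of 17232 genes did. At an unadjusted p under 0.05, 0 members were higher and 0 lower, beside 1.97% and 1.2% of all genes. DESeq2 called 0 in either direction, beside 0.0502% and 0.0645% of the 13951 genes given an adjusted p. The smallest p values were those of *Itgb4* and *Itgb3* given before. The count at an unadjusted p under 0.05 was 2 without WT-PyMT 1, without WT-PyMT 22 or without the library labelled *Lats2*-CKO 1, and 1 without WT-PyMT 14, WT-PyMT 2 or *Lats2*-CKO 8. For these fits the share over all genes was not computed.

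Carcinomas were compared with adenomas within the 4 groups, 8 tumors against 6, with the adenosquamous tumor counted as a carcinoma. No member passed the adjusted threshold in edgeR, and neither did any other gene (0%). At an unadjusted p under 0.05, 2 members were higher in carcinomas and 0 lower, beside 1.38% and 2.18% of all genes. DESeq2 called 0 in either direction, beside 0.0118% and 0.247% of the 16982 genes given an adjusted p. The 2 members were *Lama5*, with a log2 fold change of 0.71 (SE 0.29, unadjusted p = 0.0330, adjusted p = 0.928 with edgeR), and *Itgb8*, with 0.67 (SE 0.30, unadjusted p = 0.0472, adjusted p = 0.928). All 9 epithelial genes had a log2 fold change above 0, with a median of 0.38, beside -1.24 over the leukocyte genes and -0.015 over all genes. The lymphocyte-rich tumors are both adenomas, and without them 0 members had an unadjusted p under 0.05. The count at that level was 0 without WT-PyMT 1, a carcinoma, and 5 without *Lats1*-CKO 27, an adenoma. It was 4 without WT-PyMT 2 or *Lats2*-CKO 7, 3 without WT-PyMT 14, and 2 without WT-PyMT 20 or the library labelled *Lats2*-CKO 1. Without each of the other 7 tumors it was 1. For the fits that leave out tumors the share over all genes was not computed.

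Chains that assemble together were compared across tumors as 18 partner pairs, by the correlation of their log2 CPM. A Pearson permutation p adjusted over the pairs passed 0.05 in 7 pairs over all 14 tumors, in 6 within the *Lats2* experiment and in 3 within the *Lats1* experiment. The laminin chains α4, β1 and γ1 varied together. *Lama4* and *Lamc1* had r = 0.87 and rho = 0.89 (permutation p adjusted over 18 pairs = 0.00045 and 0.00108), *Lamb1* and *Lamc1* r = 0.83 and rho = 0.85 (0.00042 and 0.00108), and *Lama4* and *Lamb1* r = 0.82 and rho = 0.86 (0.00066 and 0.00108). Without the 2 tumors farthest from the median of the first chain their r was 0.77, 0.74 and 0.76. Within the *Lats2* experiment the 3 values were 0.92, 0.93 and 0.92 and within the *Lats1* experiment 0.75, 0.83 and 0.79. Within the *Lats1* experiment the last of these did not pass (exact permutation p adjusted over the pairs = 0.12). By rho none of the 3 pairs was under 0.05 within either experiment. The exact permutation p of rho adjusted over the pairs was 0.0554, 0.0554 and 0.05 in the *Lats2* experiment. In the *Lats1* experiment it was 0.205, 0.239 and 0.205.

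*Lama3* and *Lamb3* had r = 0.32 and rho = 0.31 (permutation p adjusted over 18 pairs = 0.434 and 0.400). Over all 14 tumors *Itgal* and *Itgb2* had r = 0.97, *Itga4* and *Itgb7* r = 0.95 and *Itgae* and *Itgb7* r = 0.85. Their permutation p adjusted over 18 pairs was 0.00018, 0.00018 and 0.000576. *Itgam* and *Itgb2* (r = 0.20, rho = 0.61) and *Itgax* and *Itgb2* (r = 0.28, rho = 0.51) did not pass there. Their permutation p adjusted over 18 pairs was 0.607 and 0.469 for r, and 0.0613 and 0.132 for rho. The leukocyte pairs are also given without the 2 lymphocyte-rich tumors, a choice made after seeing the data. Without them *Itgam* and *Itgb2* had r = 0.54, which did not pass, and rho = 0.70 (permutation p adjusted over 18 pairs = 0.112 and 0.0382). Over the other 12 tumors *Itgal* and *Itgb2* had r = 0.83 and rho = 0.69, *Itga4* and *Itgb7* r = 0.80 and rho = 0.69, *Itgae* and *Itgb7* r = 0.66 and rho = 0.67, and *Itgax* and *Itgb2* r = 0.85 and rho = 0.86 (permutation p adjusted over 18 pairs = 0.00672, 0.00672, 0.0463 and 0.00396 for r, and 0.0382, 0.0382, 0.0405 and 0.0072 for rho). *Itgax* and *Itgb2* within the *Lats1* experiment alone had r = -0.03. That value includes WT-PyMT 22, which had the highest *Itgb2* (74.8 CPM) and the lowest *Itgax* (15.6 CPM) of the experiment.

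Partners of these chains were read from 4 lists, with calls by DESeq2 and with adjusted p in edgeR given apart. At an unadjusted p under 0.05 in edgeR, 0 of 6 hemidesmosome genes were higher or lower in *Lats1*-CKO tumors. Of the 27 adaptor genes 2 were higher (7.41%) and 1 lower (3.70%), of the 18 basement membrane partners 2 higher (11.1%) and 1 lower (5.56%), and of the 26 ligands 5 higher (19.2%) and 1 lower (3.85%), beside 4.76% and 6.58% of all genes. In *Lats2*-CKO tumors 0 hemidesmosome genes were higher or lower. There 0 adaptor genes were higher and 1 lower (3.70%), 1 basement membrane partner was higher (5.56%) and 0 lower, and 3 ligands were higher (11.5%) and 4 lower (15.4%). Over all 17702 genes 208 were higher at that level and 5.91% were lower, or 7.08% in either direction. Of 6 hemidesmosome genes, 0 passed in either genotype comparison, by edgeR or DESeq2. Its smallest p values were those of *Plec*, a keratin linker (log2 fold change -0.23, SE 0.24, *Lats2* experiment), and *Krt14*, a basal keratin (1.34, SE 0.90, *Lats1* experiment). *Krt14* was at 44.6 to 114 CPM in WT-PyMT and 51.7 to 634 CPM in *Lats1*-CKO tumors (mean 221, SD 276), with overlap. Of 27 integrin adaptors and signaling genes, DESeq2 called 1 higher and 1 lower in *Lats1*-CKO tumors (3.70% each), beside 1.94% and 2.02% of genes given an adjusted p. *Fermt1*, a kindlin that activates integrins in epithelia, was at 14.9 to 28.7 CPM in WT-PyMT and 37.4 to 49.0 CPM in *Lats1*-CKO tumors, without overlap (log2 fold change 1.04, SE 0.24). *Ptk2b*, a kinase related to focal adhesion kinase, was at 26.7 to 82.7 CPM in WT-PyMT and 10.7 to 19.5 CPM in *Lats1*-CKO tumors (log2 fold change -1.59, SE 0.43).

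Of 18 basement membrane partners, DESeq2 called 2 higher (11.1%) and 1 lower (5.56%) in *Lats1*-CKO tumors, beside the same 1.94% and 2.02% of genes given an adjusted p. *Nid2*, a nidogen that links laminin to collagen IV, was at 9.70 to 12.2 CPM in WT-PyMT and 14.6 to 48.1 CPM in *Lats1*-CKO tumors (log2 fold change 1.37, SE 0.38). *Agrn*, a heparan sulfate proteoglycan that binds laminin, was at 273 to 400 CPM and 437 to 699 CPM (0.80, SE 0.20). *Frem1*, a matrix protein of the epidermal basement membrane, was at 5.69 to 13.4 CPM and 0.935 to 3.70 CPM (-2.31, SE 0.51). The groups did not overlap for these 3 genes.

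Of 26 integrin ligands measured, DESeq2 called 3 higher (11.5%) and 0 lower in *Lats1*-CKO tumors, beside 1.94% and 2.02% of genes given an adjusted p. In *Lats2*-CKO tumors it called 0 higher and 1 lower (3.85%), beside 0.11% and 0.779% of such genes. *Cyr61*, a secreted integrin ligand and a known target of YAP, was at 73.3 to 95.0 CPM in WT-PyMT and 125 to 203 CPM in *Lats1*-CKO tumors, without overlap (log2 fold change 1.05, SE 0.18). *Edil3*, a ligand of αVβ3, was at 0.5 to 2.76 CPM in WT-PyMT and 2.65 to 35.0 CPM in *Lats1*-CKO tumors (2.90, SE 1.04). *Tnn*, tenascin-W, was at 0.0384 to 0.423 CPM in WT-PyMT and 1.43 to 12.8 CPM in *Lats1*-CKO tumors (5.38, SE 1.24). *Vtn*, vitronectin, the gene called lower in the *Lats2* experiment, was at 0.107 to 55.8 CPM in WT-PyMT tumors and 0.350 to 0.676 CPM in *Lats2*-CKO tumors, with WT-PyMT 14 at the highest value and with overlap (-5.19, SE 1.59). None of the genes of these lists passed the adjusted threshold in edgeR in any of the comparisons.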

How the data were processed

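RNA from 14 mouse tumors was sequenced in 2 experiments of 7 libraries. Unscaled whole-number counts for each gene were deposited. The authors had made polyA libraries from 500 ng of RNA with a kit that does not mark strand, mapped single-end reads of 60 bases with STAR to mm10 (the STAR version is not given in the sources used here), counted RefSeq genes and kept genes with at least 5 counts. The tables hold 17702 and 17763 genes. Reads from a gene and from an antisense or overlapping partner cannot be told apart in such counts.

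The tumors of a genotype were tested against the WT-PyMT tumors of the same experiment, over all genes of the table, by the quasi-likelihood test of edgeR 4.0.16 in R 4.3.3 with TMM scaling. An adjusted p (Benjamini-Hochberg) under 0.05 was called. DESeq2 1.42.0 with its defaults, the tool of the study, was the alternative. The difference between the genotypes and the difference between carcinomas and adenomas were fitted over the 14 libraries and 17232 shared genes. Levels are CPM with TMM factors over the 14 libraries, log2 CPM used a prior count of 2, and RPKM used exon lengths of GENCODE vM21 on GRCm38, the assembly of mm10. SE is the standard error of the log2 fold change. Correlations used 100000 permutations over 14 tumors and an exact test within 7. The shuffles did not keep tumors within their genotype group, so differences between groups enter these correlations.

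The members, classes and lists were chosen with earlier results of these data known. Members named with values in every tumor are those that passed an adjusted p in edgeR or DESeq2, those at an unadjusted p under 0.05, and the 3 of each class with the smallest p in each genotype comparison. From the other lists, genes that DESeq2 called and those with the smallest p are named. Alternatives were DESeq2, other scaling, a low-count filter, a robust fit, histology or luminal markers as covariates, a single fit of the 14 libraries, and omission of each tumor in turn. The lymphocyte covariate and fits without WT-PyMT 14 and 22 were added after seeing the data. The procedure was tested on simulated data. Each tumor was treated as a separate mouse, and for most members the spread between tumors and not counting limits the precision. Promoter windows came from RefSeq on GRCm38.p6. Results for 1 gene of the set, which is included in the counts and medians, are not reported here.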

Additional observations from a re-analysis of the deposited data

Results flagged for a closer look

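Of 74 groups of 4 tumors, in which chance alone would set 1 tumor this far apart in about 1 of 20, so in about 3.7, 5 held a tumor far from the others. *Itga11* was at 2.67 CPM in the library labelled *Lats2*-CKO 1, against 0.617 to 0.778 CPM in the other *Lats2*-CKO tumors. *Itgal* was at 28.2 CPM in *Lats2*-CKO 16, against 11.2 to 13.0 CPM in the other tumors of its group, and *Itgb2* was at 44.1 CPM in the same tumor, against 21.0 to 23.5 CPM. The T and NK cell markers were also highest there among *Lats2*-CKO tumors, at 68.7 CPM against 12.1 to 27.0 CPM, and their part in these values was not tested. *Lamb1* was at 251 CPM in *Lats1*-CKO 27, against 143 to 154 CPM in the other *Lats1*-CKO tumors. *Lamb2*, the β2 laminin chain, was at 184 CPM in *Lats1*-CKO 18, against 100 to 110 CPM.

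*Tnn* was the integrin ligand whose change differed between the genotypes, by 9.28 on the log2 scale (5.38 in *Lats1*-CKO and -3.85 in *Lats2*-CKO). The difference passed DESeq2 (adjusted p = 0.00044) and not edgeR (unadjusted p = 0.0005, adjusted p = 0.913). The change in the *Lats2* experiment rests on few counts: 63 in WT-PyMT 14 and 0 to 3 in each *Lats2*-CKO library.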

How the results depend on the processing

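Of 658 alternatives for fold changes of named members, 635 kept direction and side of the adjusted threshold, 19 reversed and 4 passed it (DESeq2, *Lats1*-CKO). Of 128 for class medians, 122 kept their direction and 6 reversed; of 151 for counts, 117 stayed within 1.5 times. The cause of the changes below was not tested. Members at an unadjusted p under 0.05 in *Lats2*-CKO (4) numbered 1 to 8 when 1 tumor was left out, 0 with histology and 2 with lymphocyte markers as a covariate. In *Lats1*-CKO (13) they were 7 to 13, 8 with lymphocyte markers and 6 with all 14 libraries in 1 fit, and DESeq2 called 5 members where edgeR called 0. For the difference between genotypes (0) they were 0 to 2. For carcinoma (2) they were 0 to 5, 5 with DESeq2, 1 with library size only, 0 without both lymphocyte-rich tumors and 0 in the 6 WT-PyMT tumors alone. Shares over all genes were not computed beside these alternative counts at an unadjusted p. In *Lats2*-CKO the leukocyte median ranged from -2.36 to 0.46 with 1 tumor left out, and was 0.0514 with luminal and 0.24 with lymphocyte markers; the vascular median ranged from -0.0362 to 0.48. In *Lats1*-CKO the leukocyte median ranged from -1.48 to 0.57, and was 0.21 with lymphocyte markers. Log2 fold changes that turned in *Lats2*-CKO were *Itga4* (-4.13 to 0.75, 0.0222 with luminal and 0.20 with lymphocyte markers), *Itgal* (-3.68 to 0.63, 0.10 with lymphocyte markers), *Itgb7* (-6.10 to 0.34), *Itgb3* (-0.13 to 0.35), *Itgb4* (-0.15 to 0.98), *Lama2* (-2.03 to 0.21), *Lama4* (-0.34 to 0.55, -0.29 with histology, -0.0803 with lymphocyte markers) and *Lamb1* (-0.24 to 1.07, -0.0022 with lymphocyte markers). In *Lats1*-CKO they were *Itgal* (-2.71 to 0.67, 0.17 with lymphocyte markers) and *Itgb7* (-4.69 to 0.54). Of 18 pairs, 7 passed over 14 tumors, 6 within the *Lats2* experiment and 3 within the *Lats1* experiment. Pearson r turned for *Itgam* and *Itgb2* (-0.0778 within the *Lats2* experiment), *Itgax* and *Itgb2* (-0.0341 within the *Lats1* experiment), *Itga6* and *Itgb4* (-0.75 within the *Lats1* experiment and without WT-PyMT 14 and 22) and, without those tumors, *Itgav* and *Itgb6* (-0.56) and *Lama5* and *Lamc1* (-0.17). No paired analysis was possible because the labels do not give the litter of a mouse. The study states that genotypes were compared between littermates, so any effect of litter is left in the spread between tumors.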
